A study of Mus musculus with 6 samples.

Results

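The neural ectoderm genes described here are *Pax6*, *Nes*, *Sox1*, *Sox3*, *Sox11*, *Zic1*, *Pax3*, *Tubb3* and *Hes5*, 9 of the 54715 genes in the count table, chosen by name as markers of the embryonic neural lineage. Their RNA was measured in WT ASCs and in *Bdh2*-knockout ASCs, with 3 RNA-Seq libraries each. ASCs are mouse ESCs held in an advanced pluripotent state in N2B27 medium with activin A, BMP4, CHIR99021 and LIF, and both genotypes derive from a cross of a 129/sv female with a GOF/GFP male, so that both carry GFP driven by *Oct4* regulatory sequence. The knockout was made with CRISPR/Cas9 and sgRNAs near the start codon of *Bdh2*, single cells were expanded, and a clone with a deletion on both alleles was used. The sources used here do not state whether the 3 libraries of a genotype came from separate cultures, so the p-values measure the spread between these libraries, which may be technical, and a difference between genotypes cannot be told apart from a difference between a clone and its parental line.

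Neural ectoderm arises from the epiblast when BMP and Nodal/activin signalling is low. SOXB1 transcription factors (SOX1, SOX2, SOX3) maintain neural progenitors, and SOX2 also belongs to the core of the pluripotency network. PAX6, PAX3 and ZIC factors then pattern the neural plate and its border, the intermediate filament nestin marks progenitors, HES5 transmits Notch signalling in them, and the tubulin TUBB3 and the factor SOX11 accompany neuronal differentiation. The values below are levels in ASCs kept undifferentiated and not the outcome of a differentiation assay.

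Of the 9 genes, *Pax6*, *Sox1*, *Sox3* and *Tubb3* rose in *Bdh2*-knockout ASCs, *Sox11* fell slightly, and *Nes*, *Zic1* and *Pax3* did not pass the test (edgeR quasi-likelihood test, Benjamini-Hochberg adjusted p under 0.05). *Hes5* had too few counts to be tested and was counted only in WT ASCs. In these bulk libraries a few differentiating cells with high levels cannot be told apart from a small change in all cells. The 4 increases and 1 decrease among 8 tested genes have to be read against a comparison in which 41.7% of the 16758 tested genes passed the test, 21.0% as higher and 20.8% as lower in knockout. The log2 fold changes (knockout over WT) of the 8 tested genes ranged from −0.19 to 1.57 with a median of 0.59, beside a median of −0.01 over all tested genes. With library totals in place of TMM factors the split was 4 higher and 2 lower, and over all genes it moved from 3518 higher and 3478 lower to 2734 higher and 4440 lower.

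The libraries held 18927748 to 28333541 counts on genes, and 3 counts correspond to 0.106 to 0.158 CPM, the smallest level regarded as detectable. This limit covers counting error only. The targeted gene *Bdh2* had counts of 203, 193 and 209 in the WT libraries against 164, 136 and 129 in the knockout libraries (log2 fold change −0.79, edgeR adjusted p = 2.46e-04). A whole-gene count includes exons outside a deletion and does not measure the loss of protein. Of 10 pluripotency markers, 5 were higher and 1 was lower (3 and 2 with library totals, and 1 and 1 with the hepatocyte covariate described next). Their summed levels of 7093 to 7181 CPM in WT and 7157 to 7332 CPM in knockout ASCs overlapped. On library totals the sums were 7283 to 7318 CPM in WT and 7018 to 7195 CPM in knockout ASCs, lower in knockout without overlap. Hepatocyte markers varied strongly between libraries of one genotype, and their sums were 621, 394 and 77.1 CPM in WT replicates 1, 2 and 3 and 69.3, 191 and 51.2 CPM in knockout replicates 1, 2 and 3. These transcripts were most abundant in WT replicates 1 and 2. None of the 19 markers had separate genotypes, and edgeR called 15 of them lower. That number was 1 without WT replicate 1, 4 without WT replicate 2 and 19 without WT replicate 3. It was 2 without knockout replicate 1, 17 without knockout replicate 2 and 1 without knockout replicate 3. DESeq2 called 2 of the markers and limma-voom 1. The log2 of the sum per library total served as a covariate in an alternative fit.

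**Figure D1:**
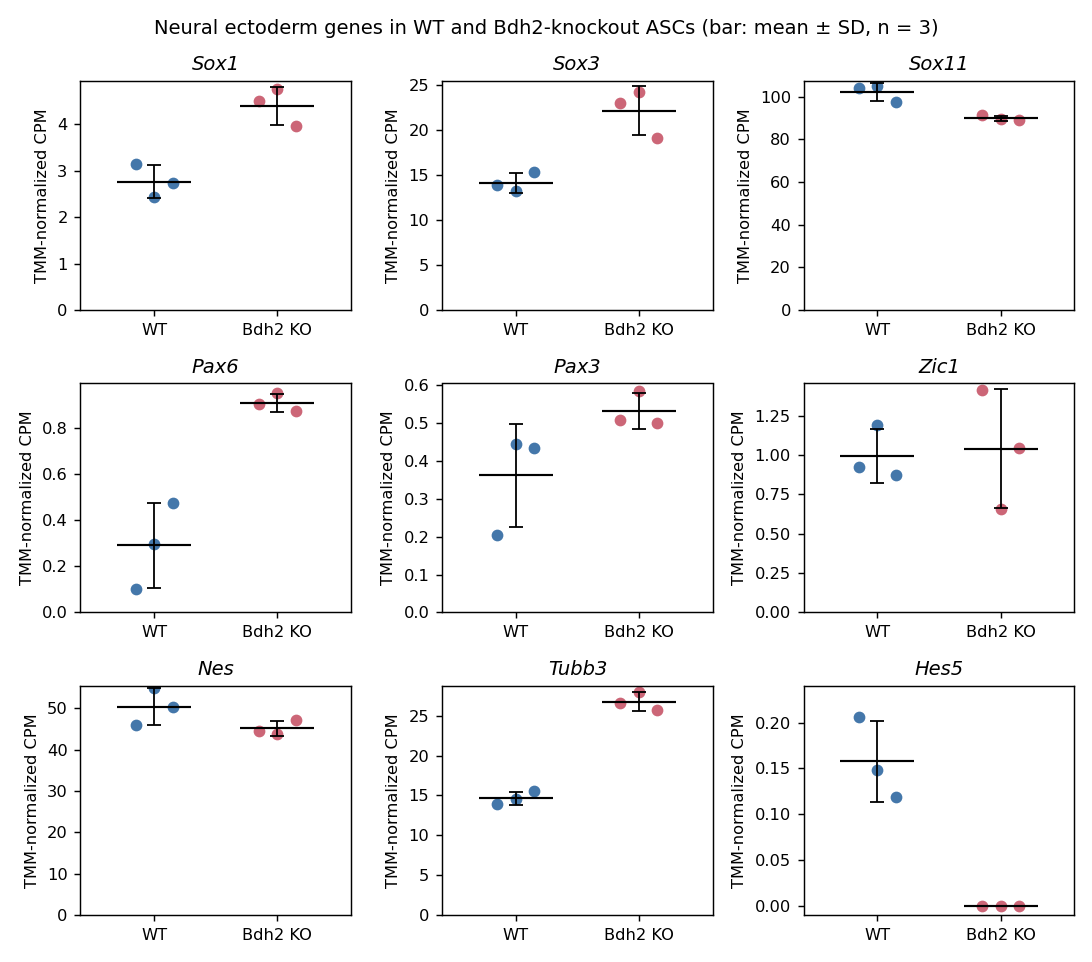
TMM-normalized CPM of the 9 neural ectoderm genes in each library, on linear axes that start at 0 except for a small margin for *Hes5*. Points are libraries (replicates 1 to 3 from left to right), horizontal lines are means and bars are SD (n = 3). The knockout libraries lie above all WT libraries for *Sox1*, *Sox3*, *Tubb3*, *Pax6* and *Pax3* and below them for *Sox11* and *Hes5*.

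The promoter sequences of *Pax6*, *Tubb3* and *Hes5* are shown because these genes had the largest increases among the members and, for *Hes5*, no counts in knockout ASCs. They are RefSeq sequences of GRCm38.p6, written 5′ to 3′ on the strand of the gene and ending before the first annotated exon base. The capitals in *Pax6* (chr2:105668646-105668895, plus strand) mark the letters CCAAT, those in *Tubb3* (chr8:123411303-123411423, plus strand) mark CATTGT, a core bound by SOX factors, and those in *Hes5* (chr4:154960673-154960922, plus strand) mark GTGGGAA, the core bound by RBPJ, the DNA-binding protein of the Notch pathway, on either strand.
Pax6: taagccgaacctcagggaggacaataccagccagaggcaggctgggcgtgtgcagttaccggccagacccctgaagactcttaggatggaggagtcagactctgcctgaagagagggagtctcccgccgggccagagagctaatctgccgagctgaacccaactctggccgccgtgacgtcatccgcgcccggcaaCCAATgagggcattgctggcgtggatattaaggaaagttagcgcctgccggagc
Tubb3: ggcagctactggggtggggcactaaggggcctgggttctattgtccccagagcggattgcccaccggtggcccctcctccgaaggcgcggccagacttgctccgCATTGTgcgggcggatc
Hes5: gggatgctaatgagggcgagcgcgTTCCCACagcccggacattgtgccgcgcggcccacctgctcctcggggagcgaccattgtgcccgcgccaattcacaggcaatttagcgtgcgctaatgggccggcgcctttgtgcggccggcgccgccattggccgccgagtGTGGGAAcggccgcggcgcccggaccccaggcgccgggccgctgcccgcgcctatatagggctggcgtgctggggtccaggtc

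Each motif was searched on both strands in the 250 bases before each RefSeq start. GTGGGAA was present in 5.42% of 32851 such windows, CATTGT in 10.7% and CCAAT in 33.8%. The *Hes5* window held GTGGGAA at 226 to 220 bases before the start on the minus strand and at 83 to 77 bases on the plus strand. Only the named motif is in capitals in each sequence. *Hes5* also held CATTGT at 211 to 206 and at 172 to 167 bases, and CCAAT at 159 to 155 and at 97 to 93 bases. CATTGT is therefore not particular to *Tubb3* among the sequences shown. Promoter windows were given for 7 of the 9 genes, with 2 for *Pax6*, and each of these 8 windows had an observed over expected CpG ratio of at least 0.6 (0.652 to 1.06), which 34.0% of 32848 windows reached. The letters are a description of the windows, and binding was not measured.

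*Sox1* and *Sox3* encode the SOXB1 factors that are largely restricted to the neural lineage at the neural plate stage, and both rose. *Sox1* (a single exon at chr8:12395295-12400126, plus strand) was counted 61, 49 and 69 times in WT replicates 1, 2 and 3 and 124, 130 and 95 times in knockout replicates 1, 2 and 3. Its normalized level was 2.76 ± 0.358 CPM (SD, n = 3) in WT and 4.41 ± 0.409 CPM in knockout ASCs, and the genotypes did not overlap. The log2 fold change was 0.68 (SE 0.16, edgeR adjusted p = 0.00462).

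*Sox3* (a single exon at chrX:60891366-60893430, minus strand) had 269, 267 and 387 counts in WT and 636, 663 and 458 in knockout ASCs. The mean rose from 14.1 ± 1.07 CPM to 22.1 ± 2.72 CPM (log2 fold change 0.65, SE 0.09, edgeR adjusted p = 1.55e-04), and every knockout library was above every WT library. The lowest knockout library, replicate 3 at 19.1 CPM, lay above the highest WT library at 15.3 CPM. Knockout replicate 3 was also the lowest knockout library for *Sox1*, at 3.96 CPM beside a highest WT value of 3.14 CPM.

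*Sox2*, the pluripotency member of the same family, was at 401 ± 22.1 CPM in WT and 366 ± 13.0 CPM in knockout ASCs and did not pass the test (log2 fold change −0.13, edgeR adjusted p = 0.0578). It is named because it shares the SOXB1 family and passed the threshold in other fits, among them the one without WT replicate 2 (adjusted p = 0.0499). Scaled to gene length, *Sox2* made up 96.3% of SOXB1 FPKM in WT and 93.9% in knockout ASCs. The share of *Sox3* was 3.38% ± 0.0837 in WT and 5.65% ± 0.594 in knockout (n = 3), and that of *Sox1* was 0.283% ± 0.0406 and 0.481% ± 0.0383. The 3 shares did not overlap between genotypes (two-sided exact permutation test, p = 0.1 each, the smallest p that 3 against 3 libraries allow). The summed SOXB1 level of 202 FPKM in WT and 190 FPKM in knockout did overlap (exact p = 0.3). *Sox1* and *Sox3* were a small part of SOXB1 RNA in both genotypes.

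*Sox11*, a SOXC factor active in immature neurons and in many embryonic progenitors, was the only tested member that fell. It lies in a single exon at chr12:27334264-27342574 on the minus strand. The counts were 2027, 2126 and 2470 in WT and 2518, 2444 and 2136 in knockout ASCs, or 104, 105 and 97.6 CPM against 91.3, 89.5 and 89.0 CPM after normalization. The groups did not overlap, and the log2 fold change was −0.19 (SE 0.05, edgeR adjusted p = 0.0106). The call was lost without knockout replicate 3 (−0.17, adjusted p = 0.0629) and without both WT replicates 1 and 2 (−0.12, adjusted p = 0.142). It was also lost with the hepatocyte covariate (−0.14, adjusted p = 0.0995) and when tested against a fold change of 1.2 (adjusted p = 1.00).

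Its relative *Sox12* fell more, from 92.5 ± 5.90 to 72.5 ± 0.764 CPM (log2 fold change −0.35, edgeR adjusted p = 2.95e-04), while *Sox4* was at 17.7 CPM in both genotypes (adjusted p = 0.987). Summed SOXC RNA was 36.8 FPKM in WT and 30.8 FPKM in knockout ASCs without overlap (exact permutation p = 0.1). Within this sum the *Sox11* share of 33.6% in WT and 35.1% in knockout overlapped between genotypes (exact p = 0.4). Of the 4 tested relatives of both families, *Sox2*, *Sox4*, *Sox12* and *Sox21*, 1 passed the test, and their median log2 fold change was −0.06. Without WT replicate 2 this was 2 with a median of −0.13, and 2 were also lower with DESeq2, library totals or the hepatocyte covariate. Without WT replicate 3 the median was −0.0052.

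*Pax6*, a paired-box factor of the neural tube and the eye, had the largest log2 fold change of the tested members and one of the lowest levels. It occupies chr2:105668900-105697364 on the plus strand, with 16 separate exon blocks. WT replicates 1, 2 and 3 gave 2, 6 and 12 counts, and knockout replicates 1, 2 and 3 gave 25, 26 and 21. After normalization these were 0.103, 0.297 and 0.474 CPM in WT and 0.906, 0.952 and 0.875 CPM in knockout ASCs, so the genotypes were apart and WT replicate 1 was below the level of 3 counts. The log2 fold change was 1.57 (SE 0.41, 95% interval 0.69 to 2.45, edgeR adjusted p = 0.00783).

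The *Pax6* count was lowest in WT replicate 1, the library with the highest hepatocyte marker sum (621 CPM). Among WT libraries it was highest in replicate 3, where that sum was lowest (77.1 CPM). The knockout libraries went the other way. *Pax6* was highest in knockout replicate 2 (0.952 CPM, sum 191 CPM) and lowest in knockout replicate 3 (0.875 CPM, sum 51.2 CPM). Knockout replicate 1, with a sum of 69.3 CPM, had 0.906 CPM of *Pax6*, beside 0.474 CPM in WT replicate 3. The part of these transcripts in the result was not tested beyond refits of the data. With the hepatocyte level as a covariate *Pax6* kept its call narrowly (log2 fold change 1.27, edgeR adjusted p = 0.0456). With WT replicates 1 and 2 both left out the log2 fold change was 0.93. Leaving out single libraries gave values between 1.21, without WT replicate 1, and 2.15, without WT replicate 3, and the call held each time (adjusted p up to 0.0294).

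The study's text also reports RT-qPCR of *Pax6* and *Nes* in embryoid bodies, where both were described as lower in knockout. Those are differentiating cells and not the undifferentiated ASCs measured here. The primers are shown because they define which part of each transcript that assay reads. The *Pax6* pair matched 8 of 26 annotated transcripts, spans chr2:105684757-105685810 and yields 177 to 612 bases depending on the transcript. The *Nes* pair matched 2 of 3 transcripts and yields 353 coding bases within exon 4 at chr3:87978507-87978859. Neither pair matched a transcript of another gene. The gene counts, in contrast, sum over all exons.
Pax6 forward primer: gcagatgcaaaagtccaggtg
Pax6 reverse primer: caggttgcgaagaactctgttt
Nes forward primer: ctcgagcaggaagtggtagg
Nes reverse primer: ttgggaccagggactgttag

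*Pax3*, a factor of the dorsal neural tube and the neural crest, lies at chr1:78101267-78197134 on the minus strand with 9 exon blocks. It was counted 4, 9 and 11 times in WT and 14, 16 and 12 times in knockout ASCs. The levels of 0.362 ± 0.135 and 0.531 ± 0.0476 CPM did not overlap, but the log2 fold change of 0.53 did not pass the test (95% interval −0.31 to 1.37, edgeR adjusted p = 0.296). It was 0.27 without WT replicate 1 and 0.29 without both WT replicates 1 and 2. The interval includes the estimates for *Sox1* and *Tubb3* as well as 0, and at this depth no difference was detectable. Among the other PAX genes only *Pax5* and *Pax8* had enough counts to be tested, and neither passed (log2 fold changes −0.32 and 0.79, edgeR adjusted p = 0.592 and 0.163).

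*Zic1*, a zinc finger factor of the dorsal neural plate, was counted 18, 24 and 22 times in WT and 39, 18 and 25 times in knockout ASCs, and the groups overlapped. It lies at chr9:91358058-91365810 on the minus strand, where 1.05% of its exon bases are shared with the antisense gene *Zic4*. The level was 0.994 ± 0.170 CPM in WT and 1.04 ± 0.377 CPM in knockout, with a log2 fold change of 0.07 (95% interval −0.61 to 0.75, edgeR adjusted p = 0.880). The sign changed without knockout replicate 1 (−0.22) and without WT replicate 3 (−0.024).

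*Zic2* and *Zic5*, relatives with higher levels in ASCs, rose in the same libraries. *Zic2* was counted 579, 551 and 802 times in the WT libraries and 1094, 1143 and 980 times in the knockout libraries (log2 fold change 0.46, edgeR adjusted p = 8.91e-05). *Zic5* rose by 0.27 on the log2 scale (adjusted p = 0.00747), and *Zic4* was too low to be tested. *Zic1* was not tested against these genes directly.

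**Figure D2:**
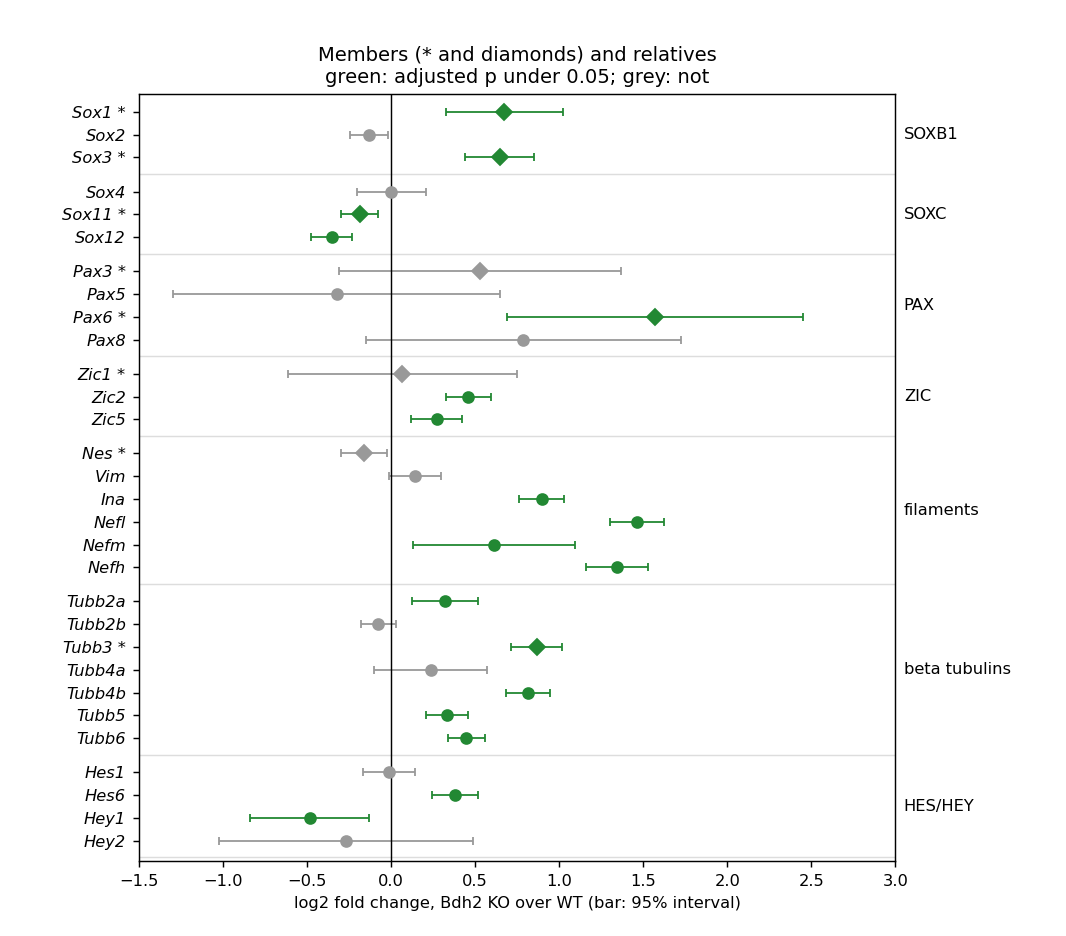
Log2 fold changes (knockout over WT) with 95% intervals from edgeR for the tested members, drawn as diamonds with an asterisk, and selected relatives, drawn as circles. Green symbols have an adjusted p under 0.05 and grey ones do not. *Sox1* and *Sox3* lie right of 0 while *Sox2* lies left of it, and the interval of *Zic1* covers the estimates of *Zic2* and *Zic5*.

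*Nes* encodes nestin, the intermediate filament protein of neural progenitors. It lies at chr3:87971078-87980451 on the plus strand with 4 exons. The counts of 893, 1108 and 1273 in WT and 1229, 1192 and 1131 in knockout ASCs correspond to 45.9, 54.8 and 50.3 CPM against 44.6, 43.7 and 47.1 CPM, and the groups overlapped. The log2 fold change of −0.16 (95% interval −0.30 to −0.02) did not pass the test after adjustment (edgeR adjusted p = 0.0601). Without WT replicate 1 it was −0.22 and passed (adjusted p = 0.0196), and it also passed with library totals (−0.22, adjusted p = 0.0143). Without WT replicate 2 it was −0.10 (adjusted p = 0.253), and without knockout replicate 2 it was −0.13 (adjusted p = 0.200).

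Several filament genes of neurons rose. *Nefl*, the light neurofilament chain, was counted 231, 296 and 352 times in WT and 1018, 1042 and 879 times in knockout ASCs (log2 fold change 1.46, edgeR adjusted p = 2.71e-08). *Nefh*, the heavy chain, rose by 1.34 (adjusted p = 2.17e-07) and *Ina*, the neuronal internexin, by 0.90 (adjusted p = 3.97e-07) on the log2 scale. The medium chain *Nefm* passed as well (0.61, adjusted p = 0.0423), but its call was lost without any 1 of 5 libraries (WT replicate 1 or 3, or knockout replicate 1, 2 or 3), with values down to 0.43 (adjusted p = 0.142). Of the 9 tested intermediate filament genes other than *Nes*, 4 rose and 1, the muscle filament *Des*, fell, with a median of 0.18 (0.16 to 0.40 over single omissions, 0.077 with the hepatocyte covariate and 0.027 without WT replicates 1 and 2). *Prph*, the filament gene of peripheral neurons, did not pass (−0.17, adjusted p = 0.297). *Vim*, the filament gene that accompanies *Nes* in progenitors, did not pass (0.14, adjusted p = 0.122), although it did without WT replicate 3 (0.21, adjusted p = 0.0238). *Nes* made up 18.3% of the FPKM of *Nes* plus *Vim* in WT and 15.3% in knockout ASCs, without overlap (exact permutation p = 0.1).

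*Tubb3*, the β-tubulin used as a marker of neurons, had the smallest adjusted p of the members. It lies at chr8:123411424-123422015 on the plus strand with 4 exons. It was counted 270, 293 and 393 times in WT replicates 1, 2 and 3 and 732, 765 and 617 times in knockout replicates 1, 2 and 3. The level rose from 14.6 ± 0.831 to 26.8 ± 1.17 CPM (182% of WT), and each knockout library, at 25.7 CPM or more, was above each WT library, at 15.5 CPM or less. The log2 fold change was 0.87 (SE 0.07, edgeR adjusted p = 1.40e-06).

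Several other β-tubulin genes rose as well. Of 6 tested relatives 4 were higher and none was lower, and their median log2 fold change was 0.33. With library totals 1 of them, *Tubb2b*, was lower. *Tubb4b*, the second most abundant, rose from 398 ± 36.4 to 701 ± 21.3 CPM (0.82, edgeR adjusted p = 7.04e-07), and *Tubb5*, the most abundant, from 633 to 798 FPKM (0.33, adjusted p = 5.29e-04). The β-tubulin sum was 953 FPKM in WT and 1284 FPKM in knockout ASCs. *Tubb3* contributed 0.824% ± 0.0328 of it in WT and 1.12% ± 0.0319 in knockout, the *Tubb4b* share was 6.14 percentage points larger in knockout, and *Tubb5* contributed 66.4% and 62.1%, each without overlap (exact permutation p = 0.1). β-tubulin genes resemble each other in sequence, and how reads with several matches were counted is not stated.

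*Hes5*, a repressor that Notch signalling turns on in neural progenitors, was at the limit of detection. WT replicates 1, 2 and 3 gave 4, 3 and 3 counts and all 3 knockout libraries gave 0, although the knockout libraries were deeper in sum. In sum these were 10 of 63692255 counts in WT and 0 of 80495888 counts in knockout ASCs. A count of 0 allows up to 3 counts per library, or 0.106 to 0.123 CPM in the knockout libraries, and the WT libraries were at 3 or 4 counts, so no fold change is given. *Hes5* did not pass the filter on low counts. Without that filter edgeR gave an adjusted p of 0.0130, and DESeq2 gave an unadjusted p of 0.0125 with no adjusted value.

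The gene lies at chr4:154960923-154962371 on the plus strand with 2 exons, and 31.8% of its exon bases also belong to exons of the antisense gene *Gm20421*. That gene was given 1, 0 and 0 counts in WT and 0, 2 and 0 counts in knockout ASCs. The library kit does not mark strand, so reads in the shared bases cannot be assigned to either gene.

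Across the members the levels per length fell into a high and a low class. In WT ASCs *Sox11* was at 12.3 ± 0.496 FPKM, followed by *Nes* at 7.85 ± 0.692, *Tubb3* at 7.84 ± 0.445 and *Sox3* at 6.84 ± 0.518 FPKM, with overlapping ranges for *Nes* and *Tubb3*. *Sox1* was at 0.572 ± 0.0742 FPKM and the other members were below 0.2 FPKM, down to *Pax3* at 0.0585 and *Pax6* at 0.0249 FPKM, whose ranges overlapped. In knockout ASCs *Tubb3* came first at 14.3 ± 0.625 FPKM, and *Sox11* (10.8 ± 0.143) and *Sox3* (10.7 ± 1.31) followed with overlapping ranges, ahead of *Nes* at 7.03 ± 0.282 FPKM. *Sox2*, for comparison, was at 195 FPKM in WT and 178 FPKM in knockout. The low members *Zic1*, *Pax3*, *Pax6* and *Hes5* rest on at most 39 counts in any library.

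**Figure D3:**
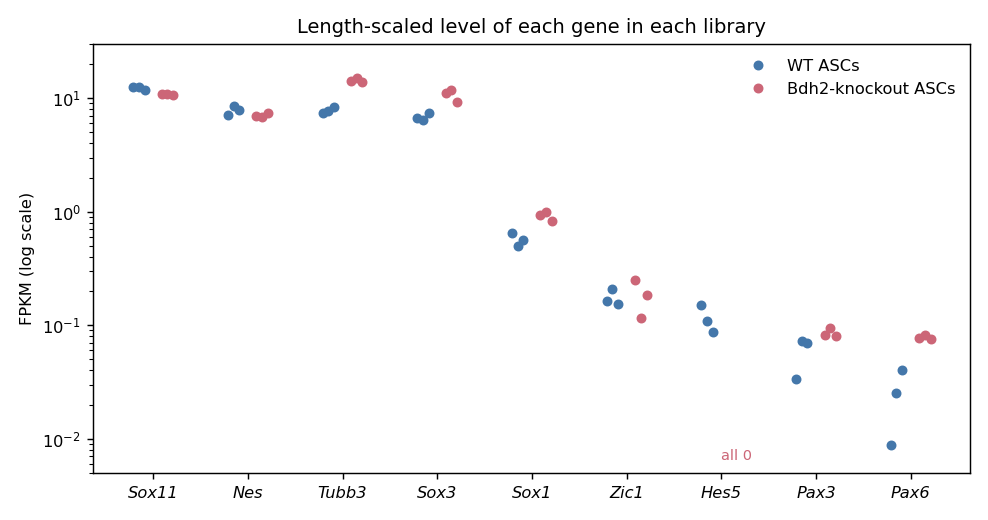
Level per gene length (FPKM, log axis) of each member in each WT library (blue) and knockout library (red), ordered by the WT mean. *Sox11*, *Nes*, *Tubb3* and *Sox3* lie above 6 FPKM in every library and the other members below 1 FPKM, and *Hes5* is at 0 in all 3 knockout libraries.

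All 3 knockout libraries lay on one side of all 3 WT libraries for 7 of the 9 members and for 6 of the 8 tested ones, beside 52.4% of all tested genes. *Nes* and *Zic1* were the members that overlapped. With library totals in place of TMM factors, 8 members had no overlap.

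The wider lists held 155 genes besides the members, of which 113 were tested. They pool neural genes with all listed SOX, ZIC, PAX, β-tubulin, intermediate filament and Notch pathway relatives, some of which, such as *Tubb5* and *Des*, are not particular to neural cells. Of these, 45 (39.8%) were higher and 14 (12.4%) lower, and the median log2 fold change was 0.16, beside 21.0% and 20.8% of all tested genes and a median of −0.01. With library totals the counts were 35 and 18 with a median of 0.10, and without WT replicates 1 and 2 they were 29 and 12 of 121 with a median of 0.073. Without knockout replicate 2 they were 37 and 9. Genes with separated genotypes made up 61.1% of the tested list genes, beside 52.4% of all tested genes. The counts of each list below have to be read against 21.0% higher and 20.8% lower among all tested genes.

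Factors of the neural plate and its regions included 7 higher and no lower genes among 15 tested, with a median of 0.24, and 14 more were too low to be tested. *Pou3f1*, a POU factor of the epiblast and early neural plate, was counted 144, 136 and 182 times in WT and 446, 420 and 430 times in knockout ASCs (log2 fold change 1.21, edgeR adjusted p = 8.56e-07). *Otx2*, a factor of the epiblast and the anterior brain, rose from 14.5 ± 1.94 to 21.5 ± 1.22 CPM (0.56, adjusted p = 3.49e-04), and *En1*, of the midbrain and hindbrain, from 0.988 ± 0.0462 to 2.13 ± 0.211 CPM (1.11, adjusted p = 0.00150). *Meis2* passed at 0.74 (adjusted p = 0.0430) with overlapping genotypes, and its call was lost without WT replicate 2 or 3 or knockout replicate 1 or 3 (0.58 to 0.97 over all single omissions, adjusted p up to 0.158). The number of higher genes was 4 without WT replicate 2, with library totals or with the hepatocyte covariate, and the median was 0.069 without WT replicate 3 and 0.12 without knockout replicate 2. Without WT replicates 1 and 2 the median of this list was −0.20 and 3 of 18 tested genes were higher.

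Among genes of neural progenitors 7 of 15 tested were higher and 3 lower, with a median of 0.20. Without WT replicates 1 and 2 these were 3 and 2 of 16. *Ncam1*, a neural adhesion molecule, rose from 4.78 ± 1.01 to 7.13 ± 0.674 CPM (0.58, edgeR adjusted p = 0.00781). The growth factor gene *Ptn* rose by 1.09 on the log2 scale (adjusted p = 0.00529) and its receptor gene *Ptprz1* by 0.93 (adjusted p = 0.0122), and the latter missed the threshold without knockout replicate 3 (0.80, adjusted p = 0.0542). Without WT replicates 1 and 2, where fewer libraries enter the fit, neither passed, while over all alternatives the log2 fold changes stayed at 0.87 or more for *Ptn* and 0.79 or more for *Ptprz1*. *Msi1*, an RNA-binding protein of neural stem cells, went the other way, from 33.8 ± 0.388 to 22.1 ± 1.52 CPM (−0.62, adjusted p = 1.05e-05).

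Proneural and neuronal genes included 10 higher and 1 lower among 21 tested, with a median of 0.26. Without knockout replicate 1 there were 8 higher and 2 lower. *Gap43*, a growth cone protein, was counted 56, 54 and 88 times in WT and 228, 169 and 166 times in knockout ASCs (1.23, edgeR adjusted p = 5.36e-05). *Insm1*, a factor of neuronal and endocrine progenitors, rose by 1.01 (adjusted p = 1.09e-04), the cytoskeletal regulator *Stmn2* by 0.56 (adjusted p = 2.31e-06) and *Dpysl3*, which acts in axon growth, by 0.62 (adjusted p = 1.60e-04) on the log2 scale. The decrease was that of *Onecut2*, which fell by 1.34 (adjusted p = 0.00238). Of the proneural bHLH factors, *Neurod1* had 76, 80 and 121 counts in WT and 171, 200 and 129 in knockout ASCs (0.57, adjusted p = 0.00790, and 0.40 and not past the threshold without WT replicates 1 and 2), while *Neurog1* and *Neurog2* had at most 5 counts in any library. *Onecut2*, *Neurod1*, *Neurog1* and *Neurog2* were named after their values were seen.

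Of the plate border and neural crest genes, 3 of 13 tested (23.1%) rose and 1 (7.69%) fell, with a median of 0.16. Among all tested genes 21.0% were higher and 20.8% lower. The number of higher genes was 2 without knockout replicate 2, where the median was 0.047, and 5 without knockout replicate 3. Without WT replicate 1 the number of lower genes was 2, as it was with library totals. *Foxd3*, which acts in both pluripotent cells and premigratory crest, rose from 11.5 ± 1.07 to 38.2 ± 3.17 CPM (1.73, edgeR adjusted p = 1.70e-08). *Tfap2c*, a factor of border and surface ectoderm, fell from 33.8 ± 2.13 to 22.2 ± 0.909 CPM (−0.60, adjusted p = 1.47e-05).

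The Notch pathway, which controls *Hes5* in progenitors, had 9 higher and 7 lower genes among 27 tested, with a median of −0.01. With library totals the counts were 6 higher and 8 lower, and the number of lower genes was 4 with DESeq2, 4 without WT replicate 3 or knockout replicate 1, and 3 without knockout replicate 2 or 3. The number of higher genes was 6 without WT replicate 2 or knockout replicate 2. The ligand gene *Dll1* rose from 2.65 ± 0.489 to 4.39 ± 0.571 CPM (0.73, edgeR adjusted p = 0.00515), whereas *Lfng*, which modifies Notch receptors, fell from 3.95 ± 0.123 to 2.11 ± 0.413 CPM (−0.91, adjusted p = 0.00139). The coactivator gene *Maml2* fell by 0.65 (adjusted p = 0.0411), but the call was lost without any 1 library other than WT replicate 3 (log2 fold changes of −0.75 to −0.47, adjusted p up to 0.159). Of the HES/HEY genes, named for their relation to *Hes5*, the Notch target *Hes1* was at 23.7 CPM in WT and 23.5 CPM in knockout (−0.01, adjusted p = 0.908) and *Hes6*, whose product antagonises HES1, rose by 0.38 (adjusted p = 4.15e-04). *Hey1*, a Notch target, fell by 0.48 (adjusted p = 0.0297), a call that was lost without WT replicate 1 or 3 or knockout replicate 2 or 3 (log2 fold changes of −0.46 to −0.40, adjusted p up to 0.105).

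**Figure D4:**
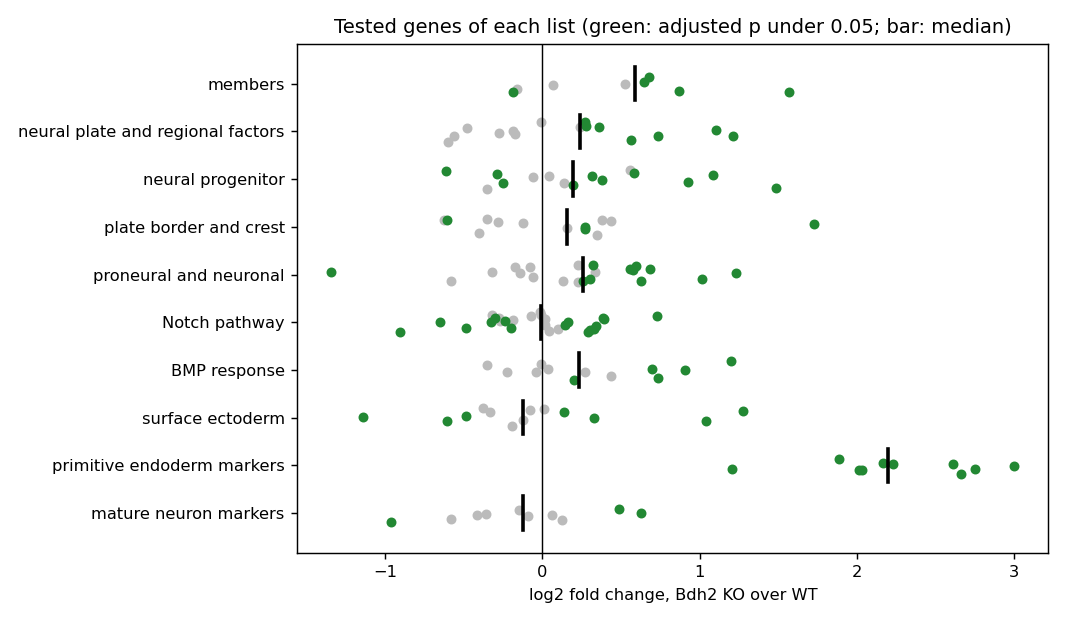
Log2 fold changes (knockout over WT) of the tested genes of each list, with green points at an adjusted p under 0.05 and vertical bars at the medians. The members have a median of 0.59, the Notch pathway one of −0.01 and the primitive endoderm markers one of 2.20.

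Markers of other cell types were examined beside these results. All 10 primitive endoderm markers rose, with sums of 140.3 to 150.0 CPM in WT and 471 to 533 CPM in knockout ASCs, among them the basement membrane genes *Lama1* (1.21), *Col4a1* (2.17) and *Col4a2* (2.23, log2 fold changes). Their part in the levels of the neural genes was not tested. Of 12 mature neuron markers, 10 were tested, 2 (20%) rose (1 without WT replicate 1 or 3 or knockout replicate 1) and 1 (10%) fell. Among all tested genes 21.0% were higher and 20.8% lower. The marker sums of 58.3 to 64.0 CPM in WT were above those of 50.9 to 57.7 CPM in knockout. *Gad1*, the enzyme that makes GABA, fell by 0.96 (edgeR adjusted p = 3.30e-06), while *Camk2a* and *Syn1* did not pass (adjusted p = 0.289 and 0.696).

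Of 11 glia markers 7 were tested, 1 rose (0 without any 1 library other than WT replicate 2, and 0 with library totals) and 1 fell (2 without WT replicate 3 and 3 with library totals), their sums were 99.0 to 107 CPM in WT and 79.2 to 87.6 CPM in knockout, and *Aqp4*, *Slc1a2* and *S100b* had at most 3 counts in every library. Of 10 fibroblast markers 8 were tested, 1 rose and 2 fell, and the sums of 43.7 to 50.6 CPM in WT and 44.6 to 51.1 CPM in knockout overlapped. Of 8 blood markers only *Cd68* and *Lyz2* were tested and *Cd68* rose (0.58, edgeR adjusted p = 0.00129), with sums of 8.38 to 12.0 CPM in WT and 13.3 to 14.6 CPM in knockout, and *Hbb-bt* had 0 counts in all libraries. Among the hepatocyte markers *Alb* was at 330, 197 and 22.0 CPM in WT replicates 1, 2 and 3 and at 17.3, 88.2 and 8.67 CPM in knockout replicates 1, 2 and 3, with overlap between genotypes.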

How the data were processed

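Total RNA of WT and *Bdh2*-knockout ASCs (3 replicates per genotype) was sequenced from libraries made with a TruSeq kit that does not mark strand. The authors cleaned the reads, mapped them to GRCm38 with Hisat2 (version 2.0.5 in the submitters' processing notes), counted them on genes with FeatureCounts and deposited raw counts for 54715 genes. The annotation release, the strand setting and the treatment of reads with several matches are not given in the sources used here. The start, end and exon length listed for the 9 members are those of GENCODE M21, from which exons were taken.

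Counts were tested with edgeR 4.0.16 in R 4.3.3 (quasi-likelihood test with TMM factors after filterByExpr at its defaults, fitted on genotype alone over all 6 libraries). P-values were adjusted over the 16758 tested genes by Benjamini-Hochberg, with a threshold of 0.05. CPM values, marker sums included, are TMM-normalized unless library totals are named. The CPM values that correspond to 3 counts are on library totals. FPKM values were computed from the counts, TMM library sizes and listed lengths. A two-sided exact permutation test over the 20 arrangements of 3 against 3 libraries was used for single values and can give no p below 0.1. Depth was 18927748 to 28333541 counts per library.

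The alternatives were DESeq2 1.42.0, limma-voom (limma 3.58.1), other scalings and filters, a replicate block, single libraries or WT replicates 1 and 2 left out, a test against a fold change of 1.2 and a hepatocyte covariate (log2 of the summed hepatocyte marker CPM on library totals). The functions were tested on simulated counts. The members and all 20 lists were chosen with earlier results of these data known. Named genes are the members, *Bdh2*, up to 4 genes per related list with an adjusted p under 0.05, an absolute log2 change of 0.5 or more and a mean normalized count of 20 or more, up to 3 markers of each other cell type by level, and the 2 genes of the wider lists with the highest FPKM. Relatives of members that are named outside this rule were chosen after their values were seen. Promoter and primer sequences were matched to RefSeq windows of GRCm38.p6 and to the transcripts of GENCODE M21. RT-qPCR and differentiation experiments were not analysed here. Results for some genes are not reported here.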

Additional observations from a re-analysis of the deposited data

How the results depend on the processing

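*Sox1*, *Sox3* and *Tubb3* kept their direction and stayed past the threshold under all 16 alternatives. The number of all genes called fell from 6996 to 2457 when a fold change of 1.2 was required and to 4386 without WT replicates 1 and 2, where the lone WT library is assumed to vary like the others. DESeq2 called 6107 genes, limma-voom 6898 and the replicate block 6452. Members called lower numbered 2 with library totals (*Nes* added), without the filter (*Hes5* added) and with a mean count of at least 50 (*Nes* added), and 0 at a fold change of 1.2, with the hepatocyte covariate (*Sox11* −0.14, adjusted p = 0.0995) and without WT replicates 1 and 2. They ranged from 0 to 2 when single libraries were left out. Members called higher were 3 with a mean count of at least 50, where *Pax6* could not be tested, and 3 without WT replicates 1 and 2. Genes of the wider lists called higher fell from 45 to 19 at a fold change of 1.2 and to 29 without WT replicates 1 and 2. Those called lower fell from 14 to 4 at a fold change of 1.2 and ranged from 9 to 13 over single omissions, with 9 without knockout replicate 2. *Zic1*, which never passed the threshold, changed sign with the hepatocyte covariate (−0.049) and ranged from −0.22 to 0.32 over single omissions. The causes were not tested.

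Deviations of libraries with the same number correlated at −0.154, 0.0995 and 0.245. These were not all above 0.1, so the libraries were not treated as paired, and whether equal numbers mark a shared batch is not known. With the replicate block the same 5 members were called, 4 higher and 1 lower, and the wider list had 43 higher and 13 lower. TPM values moved 17 of 18 length-scaled levels because they are on another scale. Depth limits *Pax6*, *Pax3*, *Zic1* and *Hes5* most.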

Other observations

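Surface ectoderm genes, the non-neural alternative of the ectoderm, had 4 (30.8%) higher and 3 (23.1%) lower among 13 tested, and the median log2 fold change was −0.13. Among all tested genes 21.0% were higher and 20.8% lower. *Grhl2*, an epithelial factor, rose from 24.5 ± 2.99 to 50.5 ± 2.44 CPM (SD, n = 3; log2 fold change 1.04, edgeR adjusted p = 6.83e-07), and *Foxi3*, of the preplacodal ectoderm, from 5.23 ± 0.798 to 12.7 ± 0.511 CPM (1.27, adjusted p = 3.24e-06). *Tfap2c* fell, as given above. With library totals the counts were 2 higher and 4 lower. Without WT replicate 1, knockout replicate 1 or knockout replicate 3 the number of higher genes was 2, the median was −0.05 without WT replicate 2, and without knockout replicate 3 it was −0.0029.

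Genes of the BMP response, a pathway that opposes neural induction and is stimulated by the BMP4 in the medium, had 5 (41.7%) higher and none lower among 12 tested. Their median was 0.24. Among all tested genes 21.0% were higher and 20.8% lower. The inhibitor-of-differentiation genes *Id1*, *Id2* and *Id3* rose by 0.73, 0.91 and 0.69 on the log2 scale (edgeR adjusted p = 5.53e-07, 1.74e-06 and 1.24e-06). *Id1* was counted 1568, 1563 and 2130 times in WT replicates 1, 2 and 3 and 3836, 3544 and 3224 times in knockout replicates 1, 2 and 3. *Fst*, which encodes the activin and BMP antagonist follistatin, rose from 17.7 ± 1.07 to 40.6 ± 3.63 CPM (edgeR adjusted p = 2.17e-07). With library totals 1 gene of this list was lower, and without WT replicate 1 there were 6 higher and 1 lower. Neither list was compared with the members by a test.

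*Dcx*, a microtubule protein of young neurons with too few counts to be tested, was counted 0, 1 and 2 times in WT and 7, 6 and 12 times in knockout ASCs, and was named after its values were seen.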
